A study of Mus musculus with 8 samples.

Results

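The genes described here are those of the cytosolic ribosome and their close copies in 2 states of mouse pluripotent cells. They were chosen by symbol alone (Rpl or Rps with a number, Rplp0 to Rplp2, and Rpsa, leaving out the Rps6k kinases), each at a single locus in the deposited tables. The rule found 88 of the 22987 genes listed at 1 locus: 46 genes of the large subunit, 31 of the small subunit, 8 paralogs, 2 pseudogene entries and Rps19bp1, a protein that binds Rps19 and is not part of the ribosome.

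Polyadenylated RNA was sequenced from 4 libraries of embryonic stem cells (mESC), which stand for the naive state of the inner cell mass, and 4 of epiblast stem cells (mEpiSC), which stand for the primed state of the later epiblast. The mESC carried the names ESF122 (libraries mESC 1 and 2) and ESF175/1 (mESC 3 and 4) and were grown with LIF, the cytokine that sustains the naive state. The mEpiSC carried the names EpiSC5 (mEpiSC 1), EpiSC7 (mEpiSC 2 and 3) and EpiSC9 (mEpiSC 4) and were grown with FGF2, the growth factor that sustains the primed state. Both states shared the same serum replacement medium and a layer of irradiated mouse embryonic fibroblasts, which was taken away before RNA was extracted. The labels give no genotype or strain for any line and do not say whether the libraries of a line were separate cultures; a p-value therefore describes only the spread among these libraries, and that spread may be technical. In bulk RNA, fewer cells of a type and less RNA per cell cannot be told apart.

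The ribosome is built of a small subunit, which reads the messenger RNA, and a large subunit, which joins the amino acids. Nearly all of its proteins are present in equal number, and their mRNAs are among the most abundant of growing cells; most start with a C and a run of pyrimidines, the TOP motif through which the TOR kinase controls their translation. Mammalian genomes also hold very many processed pseudogenes of these genes, which are copies of the spliced mRNA put back into the genome. A few copies are themselves transcribed: Rpl10l, Rpl39l and a copy of Rps4x stem from parents on the X chromosome.

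Levels are given in the deposited unit, FPKM, which divides a gene's fragments by its length in kilobases and by the size of the library, so levels of different genes are compared per length. Means carry the SD with n = 4 libraries per state. Fold changes are differences of log2(FPKM + 1), mEpiSC minus mESC unless stated, which understates the change of low genes. Genes were called at a Benjamini-Hochberg adjusted p under 0.05 in a limma fit of the 11556 genes that reached 1 FPKM in 4 or more libraries. Of the 88 members, 78 passed that filter. The other 10 were Rpl3, Rpl9, Rpl11, Rpl17, Rpl23a, Rpl26, Rpl28, Rpl36a, the paralog Rpl3l and the entry Rpl34-ps1. Positions are mm9 loci as listed in the tables.

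The libraries had the marker pattern of their labels: all 8 naive markers fell, all 7 primed markers rose, and 0 of 5 general pluripotency markers passed the test. Zfp42, a naive marker, measured 130 ± 45.4 FPKM in mESC and 0.193 ± 0.207 in mEpiSC, while Fgf5, a primed marker, measured 2.76 ± 3.94 and 48.5 ± 36.8, and Pou5f1, the shared pluripotency factor, 508 ± 50.6 and 450 ± 121. The library mESC 2 stood apart in primed markers: T measured 38.8 FPKM there, 1.95 to 2.94 in the other mESC libraries and 20.9 to 46.8 in mEpiSC, and Fgf5, Cer1 and Foxa2 measured 8.61, 6.29 and 3.95, against at most 1.64, 0.632 and 0.232 in the other mESC libraries. Of 17 fibroblast markers tested 6 rose and none fell (35.3%, while 23.1% of all genes tested rose). Their median log2 fold change was 1.45, against 0.08 over all genes tested. The summed level of all 18 listed was 98.4 to 420.1 FPKM in mESC and 403.7 to 844.9 in mEpiSC. No marker was at 0 in any library. Vim alone measured 130 of the 138.1 FPKM in mESC 4 and 350 of the 430.1 in mEpiSC 4. Col1a1 measured 78.4, 9.71, 13.9 and 0.481 FPKM in mESC 1 to 4 and 159, 84.5, 51.4 and 7.92 in mEpiSC 1 to 4. The part of fibroblast RNA in the results below was not tested. The tables hold no fragment counts, and precision within a library is given by the deposited 95% intervals. The libraries numbered 4 of both states stood apart from the others in these genes: mESC 4 was the highest mESC library for 51 of the 78 members tested and mEpiSC 4 the highest mEpiSC library for 50, and both held for 42 (53.8%, against 25.5% of all genes tested).

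Most genes of the ribosome did not pass the test between the states. Of the 78 members tested 2 were higher and 9 lower in mEpiSC, which is 14.1%, while 37.3% of all genes tested were called, 23.1% as higher and 14.2% as lower. The 2 subunits alone gave 7 of 69 genes called (10.1%). The median log2 fold change was −0.04 over these 69 genes and −0.08 over the 78 members, against 0.08 over all genes tested. For 39 of the 69 subunit genes the 95% interval of the fold change lay within −1 to 1; since the scale is log2(FPKM + 1), this does not bound the change in FPKM of low genes. The members' count was 6 higher and 16 lower with the replicate number as a block, where 45.0% of all genes tested were called, and 4 higher and 13 lower in the libraries numbered 1 to 3 alone, where 45.1% were. It was 1 higher and 12 lower after median ratio scaling, which moved the share of all calls that were higher from 61.9% to 47.5% (49.8% after quantile normalization).

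**Figure D1:**
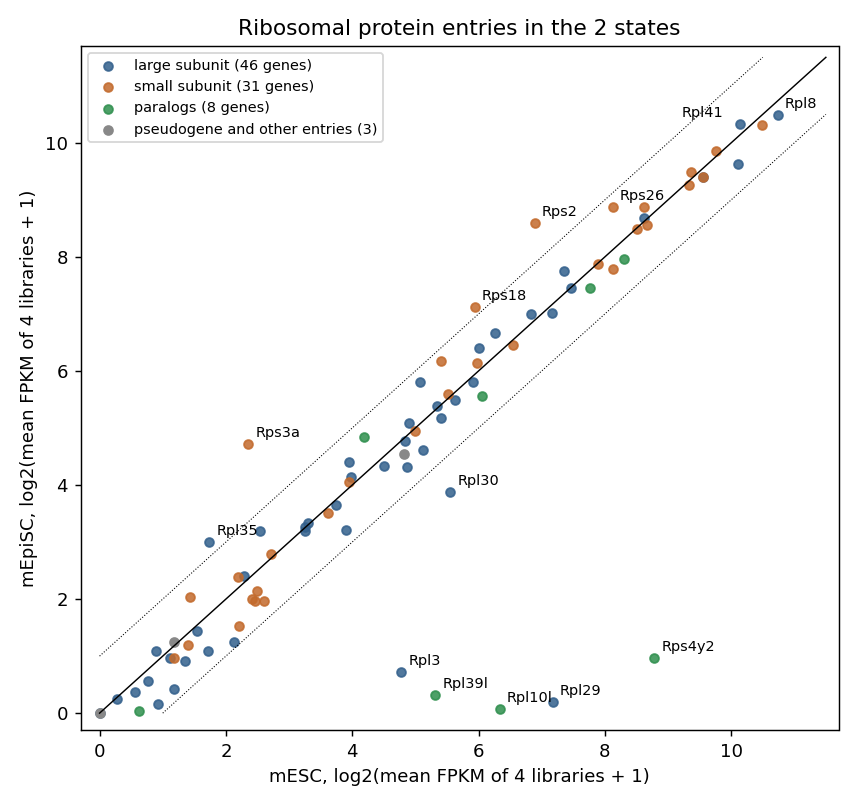
Each point is 1 of the 88 members, with the log2 of its mean FPKM plus 1 in the 4 mESC libraries on the x axis and in the 4 mEpiSC libraries on the y axis; the solid line marks equal levels and the dotted lines a difference of 1. Most points lie between the dotted lines, while Rps4y2, Rpl10l, Rpl39l and Rpl29 lie near the bottom, with means under 1 FPKM in mEpiSC; Rps2, Rps18, Rps26, Rps3a and Rpl3 lie off the line through some lines of cells only.

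Of the 7 paralogs tested 4 fell in mEpiSC (57.1%, while 14.2% of all genes tested fell) and none rose, and their median log2 fold change was −0.48. Rps4y2, Rpl10l and Rpl39l, the copies of Rps4x, Rpl10 and Rpl39, were abundant in every mESC library and close to absent in every mEpiSC library. Their parents, all on the X chromosome, did not pass the test.

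The coding sequence of 1 of these pairs and the beginning of the other two are shown because a fragment can be told to come from a copy only where the copy differs from its parent. They come from the GENCODE vM21 transcripts (GRCm38), and capitals mark the bases at which the 2 of a pair differ, in each case 5′ to 3′ from the start codon. Rpl39 and Rpl39l, shown whole, differ at 23 of 156 bases (85.3% identity), and their longest identical run is 38 bases.
Rpl39: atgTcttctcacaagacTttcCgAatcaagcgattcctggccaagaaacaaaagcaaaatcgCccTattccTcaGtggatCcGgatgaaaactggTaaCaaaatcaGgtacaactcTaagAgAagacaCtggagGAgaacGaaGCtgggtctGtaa
Rpl39l: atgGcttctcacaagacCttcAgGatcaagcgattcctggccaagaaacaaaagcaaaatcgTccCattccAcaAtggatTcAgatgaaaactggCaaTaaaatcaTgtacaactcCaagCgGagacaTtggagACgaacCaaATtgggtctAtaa
Rpl10 and Rpl10l differ at 98 of 645 bases (84.8% identity), with a longest identical run of 23 bases; bases 1 to 120 hold 18 of the differences.
Rpl10: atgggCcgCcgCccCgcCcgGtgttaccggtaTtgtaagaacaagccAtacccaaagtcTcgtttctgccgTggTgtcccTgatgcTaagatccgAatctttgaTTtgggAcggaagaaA
Rpl10l: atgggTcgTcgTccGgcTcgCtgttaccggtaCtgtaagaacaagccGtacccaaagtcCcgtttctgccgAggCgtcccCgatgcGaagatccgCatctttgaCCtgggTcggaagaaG
The entry Rps4y2 is named Rps4l in the reference tables, which class it as a transcript without a coding frame. Over the 792 bases of the Rps4x coding sequence it differs at 163 (79.4% identity), with a longest identical run of 35 bases; bases 1 to 120 hold 26 of the differences.
Rps4x: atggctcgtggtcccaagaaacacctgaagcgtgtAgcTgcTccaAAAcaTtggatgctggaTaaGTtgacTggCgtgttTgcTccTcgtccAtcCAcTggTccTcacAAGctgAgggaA
Rps4l: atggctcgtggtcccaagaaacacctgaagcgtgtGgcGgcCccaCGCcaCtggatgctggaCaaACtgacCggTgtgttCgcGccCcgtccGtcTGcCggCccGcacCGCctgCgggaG
In all 3 pairs none of the 50-base windows of the copy (596, 107 and 743 windows for Rpl10l, Rpl39l and Rps4l) occurs in the parent.

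Rps4y2 (chr6:148303177-148304118) measured 351, 289, 353 and 759 FPKM in mESC 1 to 4 and 1.74, 1.07, 0.358 and 0.602 in mEpiSC 1 to 4. It was thus present at 289 FPKM or more in both mESC lines and at 0.358 to 1.74 FPKM in the 3 mEpiSC lines, a log2 fold change of −7.76 (SE 0.32; limma, adjusted p = 1.4e-06). Its parent Rps4x, which encodes the Rps4 protein of the small subunit, measured 236 ± 73.9 and 235 ± 96.9 FPKM (log2 −0.04, SE 0.29; adjusted p = 0.94). In mESC 1 to 4 the listed level of the copy was therefore above that of the parent, which was 182, 210, 206 and 345 FPKM. The share of sequence windows that also occur in other genes was 72.25% for Rps4x and 14.88% for the copy. The listed levels of this pair therefore cannot be compared as amounts of mRNA, and the part of shared sequence was not tested.

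Rpl10l (chr12:67384365-67385388), a large-subunit protein known from meiosis in the male germ line, measured 68, 36.1, 86.5 and 129 FPKM in mESC 1 to 4. In mEpiSC 1 to 4 it measured 0.077, 0.0477, 0.0279 and 0.041 FPKM, and the deposited 95% intervals reached at most 0.154 there (log2 −6.13, SE 0.32; adjusted p = 5.1e-06). The 2 groups did not overlap. Its parent Rpl10 was listed at only 0.996 to 1.32 FPKM in mESC and 0.709 to 1.07 in mEpiSC (log2 −0.16, SE 0.13; adjusted p = 0.36). Of the sequence windows of Rpl10 73.75% also occur in other genes, so its low listed level cannot be read as a low amount of mRNA.

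Rpl39l (chr16:10170320-10175004) measured 37.6, 14.2, 47.8 and 55.7 FPKM in mESC 1 to 4 and 0.299, 0.433, 0.174 and 0.091 in mEpiSC 1 to 4 (log2 −4.84, SE 0.37; adjusted p = 4.4e-05). No 50-base window of the Rpl39l transcripts occurs in another gene, while 7.6% of those of Rpl10l and 14.88% of those of Rps4l each occur in 1 pseudogene. The parent Rpl39, the small protein at the exit tunnel of the large subunit, measured 63.2 ± 29.4 and 83.2 ± 62.2 FPKM (log2 0.24, SE 0.45; adjusted p = 0.71). The library mESC 2, which also stood apart in primed markers, was the lowest mESC library of all 3 copies, and without it their log2 fold changes were −7.93, −6.46 and −5.25 for Rps4y2, Rpl10l and Rpl39l. The lines ESF175/1 and ESF122 did not differ past the test for any of the 3 copies (adjusted p = 0.43, 0.21 and 0.27 for Rps4y2, Rpl10l and Rpl39l).

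The other paralogs differed less. Rpl7l1, a relative of Rpl7 that acts in building the large subunit, measured 61.7, 65.4, 60.6 and 73.3 FPKM in mESC and 48.3, 49.4, 44.1 and 43.8 in mEpiSC. Every mEpiSC library was lower than every mESC library (log2 −0.48, SE 0.11; adjusted p = 0.0082), although the call did not hold with 1 mean per line (adjusted p = 0.084). Rps27l, a copy of Rps27 known as a target of p53, measured 315 ± 45.6 and 248 ± 88.5 FPKM (log2 −0.40, SE 0.23; adjusted p = 0.21). Its parent Rps27 was listed far lower, at 3.58 ± 0.0793 and 4.21 ± 0.596 FPKM. The share of sequence windows that also occur in other genes was 46.18% for Rps27 and 16.16% for Rps27l. The listed levels of this pair therefore cannot be compared as amounts of mRNA, and the part of shared sequence was not tested. Rpl36al measured 217 ± 41.3 and 174 ± 36.2 FPKM (adjusted p = 0.20), and Rpl22l1, the counterpart of Rpl22 in RNA binding, 17.2 ± 8.54 and 27.7 ± 19.9 (log2 0.54, SE 0.44; adjusted p = 0.36). With the replicate block Rpl22l1 passed as higher (adjusted p = 0.016), and without mEpiSC 4 Rps27l passed as lower (adjusted p = 0.018). Rpl3l, the muscle form of Rpl3, was below the filter at 0.236 to 0.915 FPKM in mESC and 0 to 0.0588 in mEpiSC; a fit without the filter gave a log2 fold change of −0.57 (adjusted p = 0.010).

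**Figure D2:**
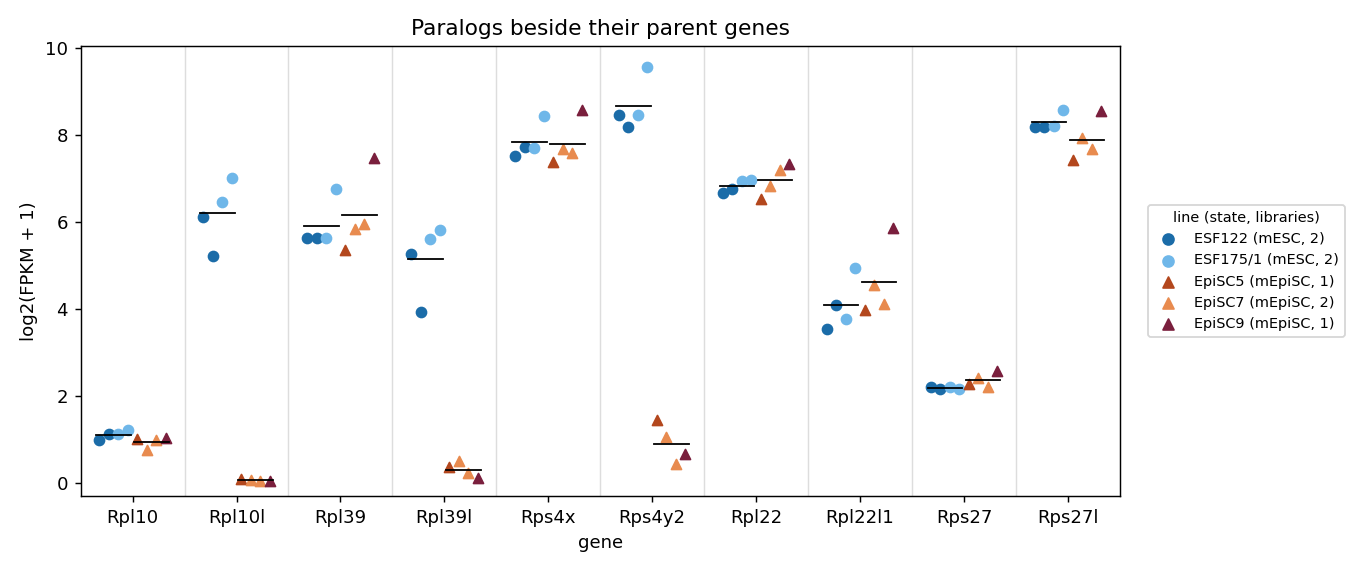
Points are log2(FPKM + 1) of single libraries for 5 parent genes, each followed by its paralog, with mESC as circles and mEpiSC as triangles coloured by line; bars are the means of the log2 values of 4 libraries. Rpl10l, Rpl39l and Rps4y2 have mESC values far above all mEpiSC values, and the values of Rpl10, Rpl39, Rps4x, Rpl22, Rpl22l1, Rps27 and Rps27l overlap between the states.

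In the large subunit, 4 of the 38 genes tested fell in mEpiSC, 2 rose and 32 did not pass. This is 15.8% called, against 37.3% of all genes tested, with a median log2 fold change of −0.06. Rpl29 (chr9:106331869-106333898), a basic surface protein of the large subunit, measured 172, 167, 77.2 and 157 FPKM in mESC 1 to 4. In mEpiSC 1 to 4 it measured 0.0869, 0.214, 0.167 and 0.112 FPKM, so the states lay apart in every library (log2 −6.91, SE 0.24; adjusted p = 8.5e-07). Of the 6 nearest genes tested 1 was called between the states, while 37.3% of all genes tested were, with log2 fold changes from −0.54 to 0.25. In the reference transcripts 35.45% of the 50-base windows of Rpl29 also occur in other genes, 84 in all, of which 81 are pseudogenes; which copy a fragment was given to cannot be read from the tables.

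Rpl30, which sits where the 2 subunits meet, measured 50.2, 68.6, 36.7 and 28.5 FPKM in mESC and 16.7, 17.5, 12.5 and 8.09 in mEpiSC, lower in every mEpiSC library than in any of mESC (log2 −1.66, SE 0.30; adjusted p = 0.0033). Rpl34 measured 12.7, 19.2, 12.8 and 11.4 FPKM against 9.85, 8.9, 8.56 and 5.64 (log2 −0.70, SE 0.20; adjusted p = 0.025). Rpl37 measured 2.18, 3.21, 2.09 and 1.64 FPKM against 1.08, 1.08, 1.27 and 1.07 (log2 −0.61, SE 0.16; adjusted p = 0.018). These 3 genes did not overlap between the states either, but only Rpl30 also passed when the cell line was a random block (adjusted p = 0.0093, against 0.069 for Rpl34 and 0.058 for Rpl37), and Rpl34 was lost without mESC 2, mESC 3 or mEpiSC 3 (0.054, 0.052 and 0.051). The entry Rpl34-ps1 lies over Rpl34 on chromosome 3 and was listed near 0, at most 5.76e-08 FPKM.

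The 2 genes that rose were Rpl15 and Rpl35. Rpl15, a core protein of the large subunit, measured 23.4, 31, 24.4 and 51.2 FPKM in mESC and 54.5, 46.5, 48.1 and 70.4 in mEpiSC, with mESC 4 inside the mEpiSC range (log2 0.79, SE 0.25; adjusted p = 0.034). Rpl35, at the exit of the peptide tunnel, measured 0.778, 6.09, 1.01 and 1.44 FPKM in mESC and 7.11, 9.66, 6.22 and 4.95 in mEpiSC, with mESC 2 inside the mEpiSC range (log2 1.48, SE 0.41; adjusted p = 0.021). Neither passed when the cell line was a random block (adjusted p = 0.11 for both). Rpl15 was also lost on leaving out any 1 of 6 libraries, all but mESC 4 and mEpiSC 2 (adjusted p = 0.056 to 0.096), and Rpl35 without mESC 1, mESC 3 or mEpiSC 2 (0.058, 0.063 and 0.059). Among genes under the filter, a fit without it also called Rpl17, at 0.54 to 1.48 FPKM in mESC and 0.0797 to 0.147 in mEpiSC (log2 −0.74; adjusted p = 0.0073), and Rpl9, at 0.685 to 1.95 and 0.235 to 0.438 (log2 −0.71; adjusted p = 0.028).

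In the small subunit, all 31 genes were tested, 1 fell, none rose and 30 did not pass. This is 3.23% called, against 37.3% of all genes tested, with a median log2 fold change of −0.04. The gene that fell was Rps23, the protein at the decoding centre, at 2.79, 3.97, 4.77 and 3.03 FPKM in mESC and 1.64, 2.22, 1.61 and 2.12 in mEpiSC. Its states did not overlap (log2 −0.67, SE 0.17; adjusted p = 0.016), and the call did not hold when the cell line was a random block (adjusted p = 0.076). Over all members tested, 9 of 78 had no overlap between the states (11.5%, against 37.1% of all genes tested): Rpl29, Rpl30, Rpl34, Rpl37, Rps23 and the paralogs Rps4y2, Rpl10l, Rpl39l and Rpl7l1.

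Rpl8, Rpl41, Rplp1 and Rps9, among the genes with the highest listed levels, did not pass the test between the states. Rpl8, whose loop reaches the peptidyl transferase centre, measured 1472, 1468, 1587 and 2304 FPKM in mESC and 1070, 1306, 1312 and 2071 in mEpiSC (log2 −0.26, 95% interval −0.79 to 0.26; adjusted p = 0.41). Rpl41, the smallest of the proteins, measured 1122 ± 516 and 1284 ± 699 FPKM. Rplp1, of the stalk that binds translation factors, measured 1105 ± 287 and 796 ± 214 FPKM (log2 −0.47, 95% interval −1.01 to 0.06; adjusted p = 0.15), and Rps9, in the body of the small subunit, 868 ± 130 and 922 ± 215. With the replicate block, Rplp1 and Rpl8 passed as lower in mEpiSC (adjusted p = 0.0061 and 0.038). Among the smallest changes of the subunit genes were those of Rps21 (364 ± 38.6 and 360 ± 38.1 FPKM; 95% interval of the log2 change −0.32 to 0.29), Rpl18 (−0.66 to 0.62), Rpl37a (−0.48 to 0.42) and Rpl7 (−0.48 to 0.42).

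The listed levels of the subunit genes spread very far, although nearly all of the proteins are present in equal number in the ribosome. Over the 8 libraries the mean was at least 1000 FPKM for 3 of the 77 genes, Rpl8 and Rpl41 among them, at least 100 for 21, between 10 and 100 for 28 and under 10 for 28, with a median of 27.0 FPKM. The 28 genes under 10 FPKM were under it in both states. They hold 18 large-subunit and 10 small-subunit genes, among them Rps6, the S6 kinase target, Rpl5 and Rpl11, which form a particle with 5S rRNA, and Rpl10. The 7 under 1 FPKM were Rpl9, Rpl11, Rpl17, Rpl23a, Rpl26, Rpl28 and Rpl36a, down to 1.41e-05 FPKM for Rpl26. Rps10 was listed at 0 in mEpiSC 3 and at 1.94 to 5.94 FPKM in the other libraries. All 88 members had the status OK in all 8 libraries. Gapdh, the glycolytic enzyme that is also known for many processed pseudogenes, was listed at only 0.846 to 1.66 FPKM.

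To describe the sequence that these genes share, each 50-base window of their coding transcripts (GENCODE vM21, GRCm38, used for names and sequence only) was looked up in the transcripts of all other genes. At least 1 shared window was found for 76 of the 77 subunit genes, with a median of 38.5% of windows shared and a range from 0 to 95.1%, the latter for Rpl35. The 14 genes with under 20% shared had a median level of 185.3 FPKM, and 8 of them were at 100 or more and 1 under 10. The 36 genes with 20 to 50% shared had a median of 16.5 FPKM, with 9 at 100 or more and 16 under 10, and the 27 genes with 50% or more had a median of 14.7 FPKM, with 4 at 100 or more and 11 under 10. Across the 77 genes, which share the same libraries and are not independent, Spearman's rho of shared windows and level was −0.39 and Pearson's r with the log2 level −0.36. Genes of high level with much shared sequence also occurred, such as Rps4x at 72.25% and Rplp1 at 60.0%. How the authors' counting treated fragments that fit several places is not given in the sources used here, so the low listed levels cannot be read as low amounts of mRNA, and the part of shared sequence in them was not tested.

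**Figure D3:**
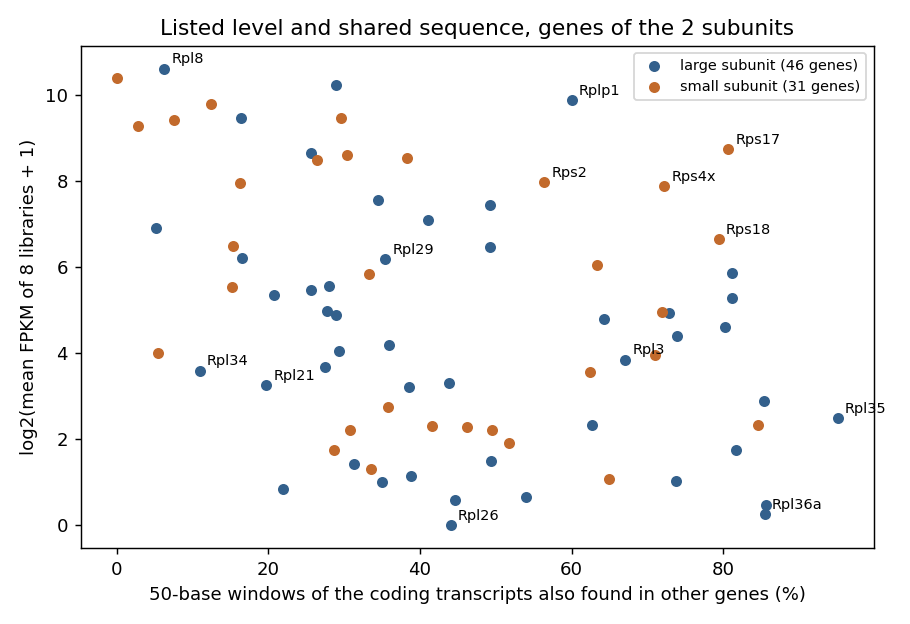
Each point is 1 of the 77 subunit genes, with the percentage of 50-base windows also found in other genes on the x axis and log2 of the mean FPKM of 8 libraries plus 1 on the y axis. Rpl8 lies at the upper left with 6.3% shared, Rpl35 lies at the right with 95.09%, and genes with 20% or more shared span the whole range of levels.

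A few members differed widely among the 8 libraries. The log2 range over the 8 libraries was at least 3 for 7 of the 77 subunit genes (9.09%, against 4.94% of all genes tested). A range of 3 is 8-fold on the scale of FPKM + 1. The 77 include 8 genes under the filter, Rpl3 among them, so the 2 shares cover unlike sets. The 7 genes were Rps2, Rpl29, Rps18, Rpl3, Rps3a, Rps26 and Rpl21, and the range of Rpl29 lay between the states. In 5 of these 7, all but Rpl29 and Rps3a, the 2 ESF122 libraries were below both ESF175/1 libraries. The test of ESF175/1 against ESF122 called 4 of the 78 members (5.13%), all higher in ESF175/1, while it called 88 of all genes tested (0.762%), 40 of them as higher (0.346%). The median log2 difference was 0.26 over the members and −0.02 over all genes. Without mESC 3, which leaves ESF175/1 a single library, the test called 28 members and 1497 of all genes.

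Rps2 (chr17:24857007-24858872), a protein at the mRNA entry of the small subunit, measured 2.01 and 1.61 FPKM in the ESF122 libraries and 241 and 227 in those of ESF175/1. In mEpiSC 1 to 4 it measured 394, 467, 461 and 221 FPKM, so only ESF122 was low. The log2 difference of the mESC lines was 6.39 (SE 0.15; adjusted p = 1.5e-05), and the deposited intervals within libraries were narrow beside it, at 1.52 to 2.50 FPKM in mESC 1 and 235.5 to 246.3 in mESC 3. The difference of the states was log2 3.85 (SE 1.54; adjusted p = 0.078) with both mESC lines and 0.66 (adjusted p = 0.18) against ESF175/1 alone. Without mESC 3 or without mESC 4, which leaves ESF122 as the larger part of the mESC, the state difference passed (adjusted p = 0.036 and 0.033).

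Rps18 (chr17:34088943-34092586), at the head of the small subunit, measured 1.24 and 0.983 FPKM in ESF122, 78.9 and 161 in ESF175/1, and 87.4, 137, 142 and 187 in mEpiSC (log2 difference of the mESC lines 5.75, SE 0.31; adjusted p = 7.8e-04). Rps26 (chr10:128061584-128063562), which contacts the mRNA upstream of the start codon, measured 44.9 and 49.2 FPKM in ESF122, 445 and 571 in ESF175/1, and 333, 494, 490 and 548 in mEpiSC (log2 3.39, SE 0.18; adjusted p = 7.8e-04). Rpl21 (chr5:147644465-147648608) measured 0.897 and 0.912 FPKM in ESF122, 12.4 and 20 in ESF175/1, and 8.42, 9.33, 8.53 and 8.1 in mEpiSC (log2 3.14, SE 0.23; adjusted p = 0.0040). In each of the 3 genes, too, ESF122 was the low line of the 5. Against ESF175/1 alone, Rpl21 was lower in mEpiSC (log2 −0.80; adjusted p = 0.029), whereas its value with both mESC lines was 0.76 (adjusted p = 0.46).

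Rpl3 (chr15:79908210-79913836), near the peptidyl transferase centre, had another pattern: 0.818 and 0.912 FPKM in ESF122, 57 and 46.7 in ESF175/1, and 0.759, 0.587, 0.576 and 0.641 in mEpiSC. Here ESF175/1 was the high line of the 5; the gene was under the filter, and a fit without it gave a log2 difference of the mESC lines of 4.82 (SE 0.15; adjusted p = 0.0034). Rpsa, the small-subunit protein also known as the laminin receptor, came next by p at 17.6, 14, 40.4 and 94.3 FPKM in mESC and 49.6, 61.1, 82.2 and 93.2 in mEpiSC, and did not pass (log2 1.91, SE 0.38; adjusted p = 0.098). It passed without mESC 3 (adjusted p = 0.0042), and its state difference passed with the replicate block (log2 1.12; adjusted p = 0.032).

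Among the mEpiSC lines 1 of 78 members was called (1.28%, against 2.6% of all genes tested). It was Rps3a (chr3:85941861-85946590), a small-subunit protein that binds initiation factors, at 3.62 FPKM in EpiSC5, 3.36 and 2.64 in EpiSC7 and 91.7 in EpiSC9 (F test in limma, adjusted p = 0.0015). The 4 mESC libraries measured 4.21, 4.56, 4.23 and 3.41 FPKM, so the single EpiSC9 library stood above the 7 others. The test assumes that this library varies like those of the other lines, and with 1 library its result cannot tell the line from the library. Among the next by p were Rplp0, the base of the stalk, at 120, 142, 125 and 477 FPKM in mEpiSC 1 to 4 (adjusted p = 0.070), and Rpl39 and Rps2, none of which passed (adjusted p = 0.090 for Rpl39 and 0.061 for Rps2).

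The genes next to these loci did not pass the test of the lines. For Rps2, Rps18, Rps26, Rpl21 and Rpl3, 0 of the 6 nearest genes tested passed between the mESC lines. Of all genes tested only 0.762% passed there, so these few neighbours cannot tell the loci from other places. Their log2 differences ran from −0.55 to 0.44, apart from those around Rps2. The latter, which include the entries Snora78 and Snora64, ran from −2.9 to 0.26. For Rps3a, 0 of the 6 nearest passed among the mEpiSC lines, with F from 0.07 to 14.26, while 2.6% of all genes tested passed. The shares of windows that occur in other genes were 56.43% for Rps2 (71 other genes, all pseudogenes), 79.39% for Rps18 (13), 38.29% for Rps26 (5), 19.72% for Rpl21 (82), 67.11% for Rpl3 (26) and 71.01% for Rps3a (10). The part of this sharing in the line differences was not tested.

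**Figure D4:**
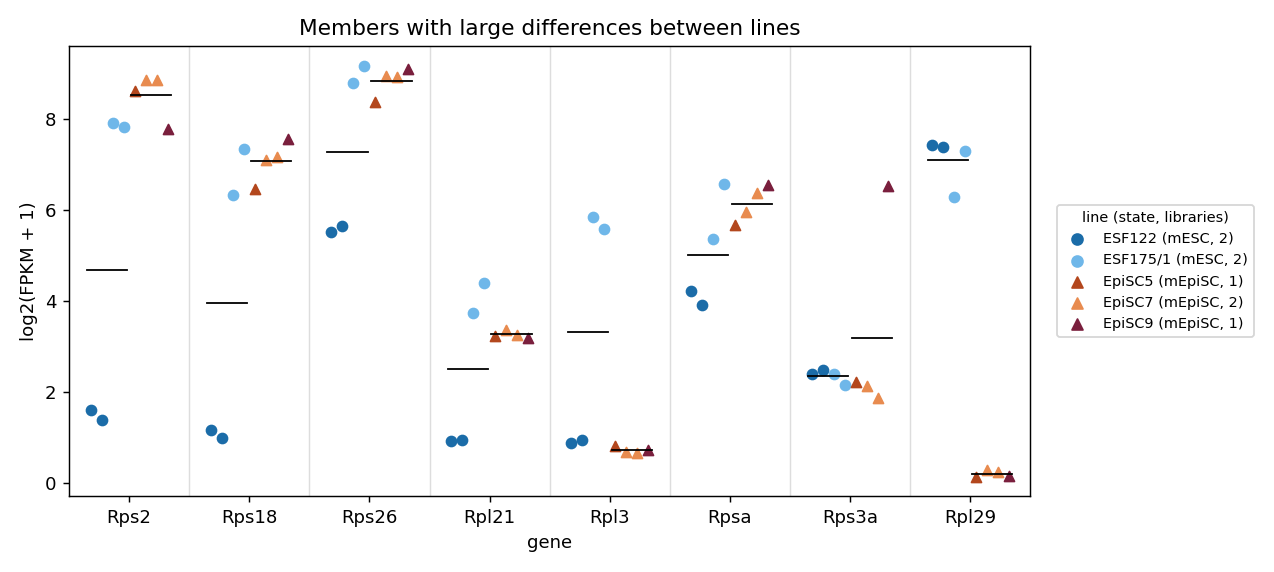
Points are log2(FPKM + 1) of single libraries, with mESC as circles and mEpiSC as triangles coloured by line; bars are the means of the log2 values of the 4 libraries of a state. The ESF122 libraries lie far below the ESF175/1 libraries for Rps2, Rps18, Rps26, Rpl21 and Rpl3, EpiSC9 lies above all other libraries for Rps3a at 91.7 FPKM, and Rpl29 separates the states.

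The sequence around the annotated start was described for members found in the RefSeq table (GRCm38.p6), 68 in all. Windows of 30 bases, 15 before and 15 from the start, are shown for those of the genes with called line differences, the 3 copies and their parents that the table holds; capitals mark the longest run of a C followed by at least 4 pyrimidines on the gene's strand.
Rps2 (chr17:24720048-24720077, +): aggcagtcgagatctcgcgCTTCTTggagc
Rps18 (chr17:33955651-33955680, −): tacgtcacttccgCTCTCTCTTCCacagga
Rps26 (chr10:128626492-128626521, −): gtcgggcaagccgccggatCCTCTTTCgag
Rps3a (chr3:86142654-86142683, −): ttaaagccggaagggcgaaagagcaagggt
Rpl39 (chrX:37085208-37085237, −): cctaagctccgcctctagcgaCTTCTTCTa
Rpl39l (chr16:10170213-10170242, +): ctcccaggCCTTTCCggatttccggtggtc
Rpl10 (chrX:74270801-74270830, +): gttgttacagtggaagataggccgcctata
Rpl10l (chr12:66284387-66284416, −): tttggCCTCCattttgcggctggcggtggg
Rps4x (chrX:102189377-102189406, −): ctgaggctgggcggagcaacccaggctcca
The windows of Rps3a, Rpl10 and Rps4x hold no such run. Such a run was present in 39 of 59 subunit genes (66.1%), in 5 of 7 paralogs (71.4%) and in 10885 of 27025 RefSeq genes (40.3%). Over 250 bases before to 50 after the start, the subunit genes had a median GC content of 58.0% and 22 CpG, the paralogs 56.3% and 17, and all genes 52.7% and 7. A match is a description of the letters and not a measured start site.

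Of 65 genes of ribosome biogenesis 42 fell in mEpiSC (14.2% of all genes tested fell), 1 rose and 22 did not pass, with a median log2 fold change of −0.53 (0.08 over all genes tested). These genes make, process and fold the rRNA and assemble the subunits. Rrn3, the factor that brings RNA polymerase I to the rRNA genes, measured 101, 90.5, 93.9 and 91 FPKM in mESC and 44.9, 44.4, 35.9 and 45 in mEpiSC, without overlap (log2 −1.13, SE 0.11; adjusted p = 2.1e-04). Heatr1, needed for early rRNA processing, fell from 54.6 ± 5.83 to 27.7 ± 3.98 FPKM, Mybbp1a, a nucleolar regulator, from 144 ± 7.42 to 80.5 ± 28.2, and Riok2, a kinase of late small-subunit maturation, from 34.2 ± 3.28 to 18.5 ± 1.89 (adjusted p = 9.9e-04, 0.012 and 9.7e-04). The gene that rose was Rrp1, from 89 ± 12.6 to 117 ± 7.1 FPKM. The count of lower genes was 24 when the cell line was a random block and 10 with 1 mean per line, and the share of all genes tested that were lower was then 9.05% and 4.82%.

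Of 36 translation factors tested 2 fell, none rose and 34 did not pass, 5.56% called against 37.3% of all genes tested, with a median of −0.07. These were Etf1, the release factor (153 ± 19.3 to 111 ± 8.47 FPKM; adjusted p = 0.020), and Eif3l, of initiation factor 3 (222 ± 2.87 to 171 ± 12.1 FPKM; adjusted p = 0.021). Of 75 mitochondrial ribosomal proteins tested 14 fell, 3 rose and 58 did not pass, 22.7% called against 37.3% of all genes tested, with a median of −0.21. Mrps24 fell from 41.1 ± 17.8 to 18.2 ± 6.43 FPKM and Mrpl27 rose from 8.36 ± 3.31 to 18.4 ± 5.02 (adjusted p = 0.023 and 0.012). Fau, which encodes a ribosomal protein fused to a ubiquitin-like protein, and Gnb2l1, the small-subunit protein Rack1, did not pass (15 ± 3.09 and 11.4 ± 3.69 FPKM, and 1292 ± 230 and 1222 ± 375).

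As a share of the summed FPKM of a library, the 88 members took 4.23, 4.48, 5.06 and 6.41% in mESC 1 to 4 and 3.63, 4.19, 4.54 and 6.15% in mEpiSC 1 to 4. The ranges overlapped, and in each state the library numbered 4 was the highest. The large-subunit genes took 1.90 to 2.91% in mESC and 1.53 to 2.84% in mEpiSC, and the small-subunit genes 1.96 to 2.93% and 1.96 to 3.08%. The biogenesis genes, by contrast, took 1.46, 1.51, 1.53 and 1.50% in mESC and 1.10, 1.12, 1.04 and 0.957% in mEpiSC, without overlap and with no rise in the libraries numbered 4.

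**Figure D5:**
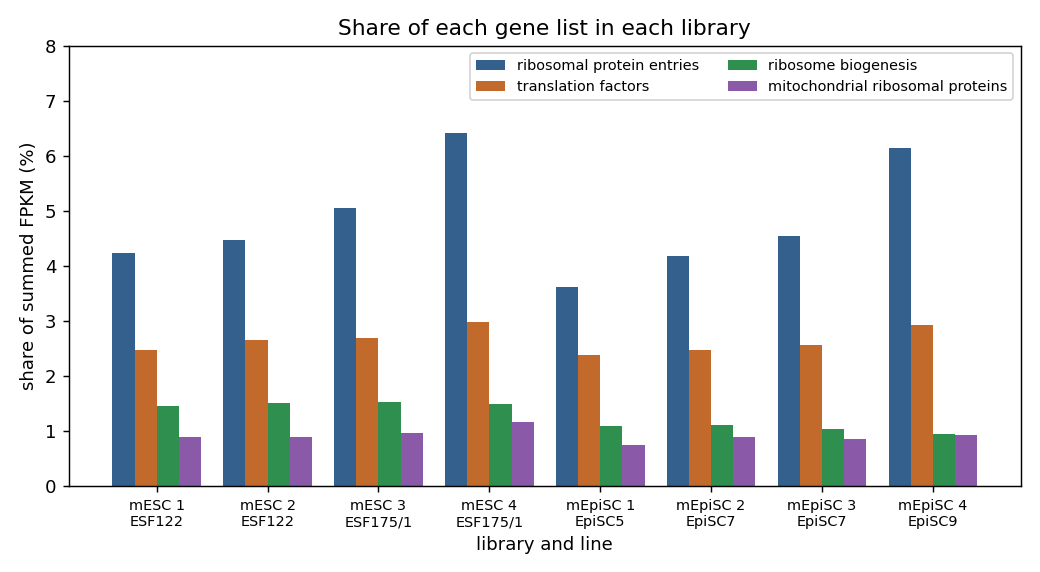
Bars give the share of the summed FPKM taken by each of 4 gene lists in each of the 8 libraries, named with their line. The ribosomal proteins take from 3.63 to 6.41% and are highest in mESC 4 and mEpiSC 4, while the biogenesis genes take 1.46 to 1.53% in mESC and 0.957 to 1.12% in mEpiSC.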

How the data were processed

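Polyadenylated RNA of 8 libraries was prepared with the TruSeq kit, per the labels' protocols. Each library has a deposited table of FPKM per gene, with a 95% interval and a status, made by the authors with TopHat2 2.0.6 and Cufflinks 2.0.2 on mm9, per the submitters' processing notes. Not given in the sources used here were the annotation, the options, the use of strand and the treatment of fragments that fit several places. Reads of overlapping or antisense genes therefore cannot be told apart, and members with near-identical copies are uncertain.

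Of 23699 entries per table, 248 symbols at several loci (712 entries) were left out; 0 columns of per-sample values were unused. Libraries were grouped by the labels. FPKM are not counts, so log2(FPKM + 1) was tested with limma 3.58.1 (trend and robust, statmod 1.5.0, R 4.3.3) on the 11556 genes that reached 1 FPKM in 4 or more libraries, with Benjamini-Hochberg adjustment over all of them. Lines were compared in a fit of the single libraries with a separate mean for each line, so the spread came from lines with more than 1 library. This is not the alternative called 1 mean per line, which averages the libraries of a line before the fit. The script was tested on simulated data. Shared sequence was counted in 50-base windows of GENCODE vM21 transcripts; no coordinates were carried between builds.

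The members and the lists were chosen with earlier results of these data known. Named members were all paralogs; of the subunits, the 10 largest changes in each direction past the test, the 5 of highest mean, those with a mean under 10 FPKM in both states (by range), the 5 of lowest p per line comparison and the 5 smallest changes; and up to 4 genes of each other list. Some genes that this rule names are not reported here. Rpl3, Rpl9, Rpl17, Rpl22, Rps4x, Rps27, the genes listed as without overlap and the examples of shared sequence were named after their values were seen.

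Replicate numbers name different lines in the 2 states. After group means were subtracted, same-numbered libraries correlated across genes at 0.22, 0.15, 0.18 and 0.51 (replicates 1 to 4). Each exceeded 0.1. On these data alone, with no label behind it, the numbers were taken as pairs in an alternative, the replicate block. The main fit did not pair the libraries. The highest correlation with another number was 0.12, 0.21, 0.21 and −0.22, so only replicates 1 and 4 correlated best with their own number. Alternatives were other pseudocounts (0.1 and 5), no filter or a minimum mean of 5 FPKM, median ratio scaling, quantile normalization and scaling to the summed FPKM of non-members, status OK in every library, no trend, a block for the replicate number, a random block for the line (within-line correlation 0.47), lines averaged to 1 sample each, and leaving out each library. Replicates 1 to 3 only and each mESC line alone were chosen after seeing the data.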

Additional observations from a re-analysis of the deposited data

Results flagged for a closer look

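In 64 groups of 4 libraries, 1 for each named and tested member in each state, a library was singled out when its gap to the nearest of the others passed Dixon's 95% critical share of the group's range. Chance gives about 1 in 20 such groups where groups are chosen without regard to their values, but Rps3a, Rplp0 and Rpl39 were named for their differences among the mEpiSC lines and the genes share libraries, so the values are given as a description only. In mESC 4, Rps27l measured 383.0 FPKM (290.0 to 293.7 in the other mESC libraries), Rpl39 107.3 (48.3 to 48.8) and Rpl7 214.6 (156.7 to 164.0). In mEpiSC 4, the only EpiSC9 library, Rps3a measured 91.7 FPKM (2.64 to 3.62 in the other mEpiSC libraries) and Rplp0 476.7 (up to 141.6). Rpl29 was low in mESC 3 at 77.2 FPKM (156.5 to 172.4), and Rpl37 was high in mEpiSC 3 at 1.27 (1.07 to 1.08). Of these 7 values 5 are in the libraries numbered 4.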

How the results depend on the processing

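The 2 states were compared again under every other setting; the cause of each move was not tested, except that fewer samples enter with 1 mean per line, with left-out libraries and with single mESC lines. Among the ribosomal proteins, 2 higher and 9 lower became 1 higher with no filter, with a minimum mean of 5 FPKM and after median ratio scaling, where in the large subunit 1 gene was higher and in the small subunit 1, 0 and 2 were lower. Quantile normalization gave 2 lower in the small subunit and 1 higher translation factor. Median ratio scaling shifted the median log2 change of all genes from 0.083 to −0.047; it gave 0 higher biogenesis genes, 6 lower translation factors and 24 lower mitochondrial ribosomal proteins, and scaling to non-members gave 0 higher biogenesis genes and 22 lower mitochondrial ones. With the replicate block 6 members were higher and 16 lower, with 3 higher and 8 lower in the large subunit, 2 higher and 2 lower in the small subunit and 1 higher and 5 lower among the paralogs; 1 translation factor was higher, and 5 mitochondrial proteins were higher and 29 lower. A line as random block left 0 members higher and 6 lower (large subunit 0 and 2, small subunit 0 lower), 0 higher and 24 lower biogenesis genes, 0 translation factors lower, and 1 higher and 7 lower mitochondrial proteins. With 1 mean per line the members were 1 higher and 5 lower (large 1 and 2, small 0 lower). Biogenesis was then 0 and 10, translation 0 lower and mitochondrial 0 and 2. Of all genes tested, 37.3% were called in the main fit, 28.2% with no filter and 33.7% with a mean of at least 5 FPKM. After median ratio scaling 38.9% were called, and 38.0% after quantile normalization or scaling to non-members. The share was 45.0% with the replicate block, 24.6% with the line as random block and 12.3% with 1 mean per line.

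Replicates 1 to 3 only gave 4 higher members (3 of the large subunit; small subunit 1 higher, 3 lower), 1 higher translation factor, and 6 higher and 27 lower mitochondrial proteins. Against ESF175/1 alone 1 member was higher, of the large subunit, 26 biogenesis genes were lower, 0 translation factors lower, and mitochondrial proteins were 0 higher and 9 lower. Against ESF122 alone 6 members were higher, 4 of them of the small subunit, which had 0 lower. Biogenesis then had 0 higher and 19 lower, translation 1 higher and 0 lower, and 4 mitochondrial proteins were lower. Of all genes tested, 45.1% were called in replicates 1 to 3 only, 27.3% against ESF175/1 alone and 20.4% against ESF122 alone. On leaving out each library in turn this share was 27.1 to 41.4%. Leaving out each library in turn gave 0 to 5 higher and 8 to 12 lower members, 0 to 2 and 3 to 6 of the large subunit, 0 to 3 and 1 to 2 of the small subunit, 0 and 4 to 5 paralogs, 0 to 1 and 31 to 41 biogenesis genes, 0 to 1 and 0 to 3 translation factors, and 3 to 5 and 7 to 23 mitochondrial proteins; the highs of members, small subunit and translation factors came without mESC 4, and 23 lower mitochondrial proteins without mEpiSC 4. The mESC lines differed in 4 to 28 members, 28 without mESC 3, and the mEpiSC lines in 1 to 24, 24 without mESC 3 or mESC 4; without mEpiSC 1 or mEpiSC 4 the latter has no value. A pseudocount of 5 and quantile normalization gave 2 for the mEpiSC lines. Without mESC 3, which leaves ESF175/1 a single library, calls between the mESC lines rose among all genes tested as well. For the mEpiSC lines the share of all genes is given for the main fit only, where 2.6% were called. Whether the rises in the 2 line comparisons were particular to the members was not tested.

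Of the named members' values 761 kept their side of the threshold or moved by less than the spread, 31 lost a call, 21 gained one, 4 moved further and 1 reversed: Rpl21 was −0.80 (adjusted p = 0.029) against ESF175/1 alone. Rps4y2, Rpl10l, Rpl39l, Rpl29 and Rpl30 kept their call in every setting. The paired fit, with the replicate block, gained calls for Rpl22l1, Rps27l (adjusted p = 0.050), Rpl8, Rplp1 and Rpsa and changed no other named call. Against ESF175/1 alone the state differences of Rps2, Rps18, Rps26 and Rpsa were 0.66, 0.25, −0.14 and 0.16, and against ESF122 alone 7.05, 6.00, 3.26 and 2.08. The deposited intervals of values under 1 FPKM can reach 0, and the part of depth in them was not tested.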
